A study of Medicago sativa with 86 samples.

Results

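In leaves of the alfalfa cultivar Agate grown at 600 ppm CO2, plants with ineffective nitrogen fixation were compared with plants with effective nitrogen fixation. Of the 86 libraries of the series, 22 were taken by their labels for cultivar, CO2 level and fixation class, 11 of ineffective and 11 of effective plants. Each class had 4 libraries at 6 mM, 4 at 10 mM and 3 at 16 mM KNO3, and nitrate level was kept as a block in the comparison. All 22 libraries came from plants of Medicago sativa to which rhizobium had been added, which were fed KNO3 in nutrient solution every week and kept in a growth chamber with 8 h of light a day. Messenger RNA of the leaf was sequenced and reads were counted per gene. Whether plant, bacterium or both set the classes apart is not stated by the labels, and neither is the number of plants behind a library, so p-values reflect the spread among these libraries alone.

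In the symbiosis of legumes with rhizobia, bacteria inside root nodules reduce dinitrogen to ammonium, which the plant assimilates and exports to the shoot in return for carbon from photosynthesis. A nodule that forms without fixing nitrogen leaves the plant dependent on mineral nitrogen such as nitrate. Growth at elevated CO2 is known to lower leaf nitrogen in many plants, and nitrogen supply is known to limit how far photosynthesis gains from the extra CO2. Alfalfa germplasm with ineffective nodules has been bred from both cultivars of the series, but the labels do not name the germplasm. The title of the series asks how fixation bears on carbon and nitrogen balance at elevated CO2, and this comparison holds cultivar and CO2 level fixed and varies the fixation class.

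The libraries held 15408689 to 22782480 counts in ineffective plants and 18197862 to 22911909 counts in effective plants. The totals were 18555045 ± 2236688 in ineffective and 20625939 ± 1328608 in effective plants (SD, n = 11 each), a difference with an exact permutation p of 0.0232 when classes were permuted within nitrate levels (two-sided, 98000 arrangements). Of the 49095 identifiers of the count table, 14724 had no count in these libraries and 22187 passed the filter on low counts. No identifier matched the available reference table of gene names, so genes are given by identifier alone, their functions are not stated, and the leaf label could not be checked against marker genes. In whole leaf, fewer cells of a type and less RNA per cell cannot be told apart, and the counting may have split reads between near-identical copies of a gene.

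The fixation classes differed in 2215 genes, 9.98% of those tested. In ineffective plants 1158 genes were higher, 5.22% of those tested, and 1057 were lower, 4.76%, by the quasi-likelihood test of edgeR at a Benjamini-Hochberg adjusted p under 0.05. The balance of directions was not stable. More genes were lower than higher in the model of all 85 libraries (1099 higher, 1157 lower), with DESeq2 (1874 higher, 1945 lower) and without replicate 3 of ineffective plants at 6 mM (1381 higher, 1407 lower). Among the called genes the median size of the log2 fold change was 0.98, and for 1086 it was over 1. The median log2 fold change over all genes tested, ineffective over effective, was -0.016. At an unadjusted p under 0.05 there were 5846 genes. With every library thinned to the smallest total, 2198 genes were called. Leaving out any single library gave 1557 to 2788 called genes, and leaving out all libraries of replicate number 1, 2, 3 or 4 gave 255, 781, 1185 and 796.

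The most abundant transcripts were mostly lower in ineffective plants. Of the 100 genes with the highest mean level over the 22 libraries, 30 were called lower and 3 higher. Of all genes tested, 4.76% were lower and 5.22% higher. The median log2 fold change of the 100 was -0.40, against -0.016 over all genes tested. With thinned libraries 30 were again lower and 3 higher, and without the libraries of replicate number 1, 2, 3 or 4 the numbers lower were 2, 6, 30 and 7. Levels are given in CPM, counts scaled to a common library size, with TMM factors and without correction for length, so a long transcript enters these 100 more easily than a short one. The lean to lower levels faded down the ranking. Among ranks 101 to 300, 23 genes were lower, 11.5%, and 10 higher, 5%. Among ranks 301 to 1000, 47 were lower, 6.71%, and 41 higher, 5.86%. From rank 1001 on the shares lay near those of all genes tested, so a turn of direction there is not shown. Ranks 1001 to 3000 had 131 higher genes, 6.55%, and 123 lower, 6.15%. Ranks 3001 to 10000 had 459 higher, 6.56%, and 348 lower, 4.97%. Ranks 10001 to 22187 had 514 higher, 4.22%, and 486 lower, 3.99%. The median size of the log2 fold change of called genes was 1.75 in these last ranks, against 0.69 in the top 100.

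**Figure D1:**
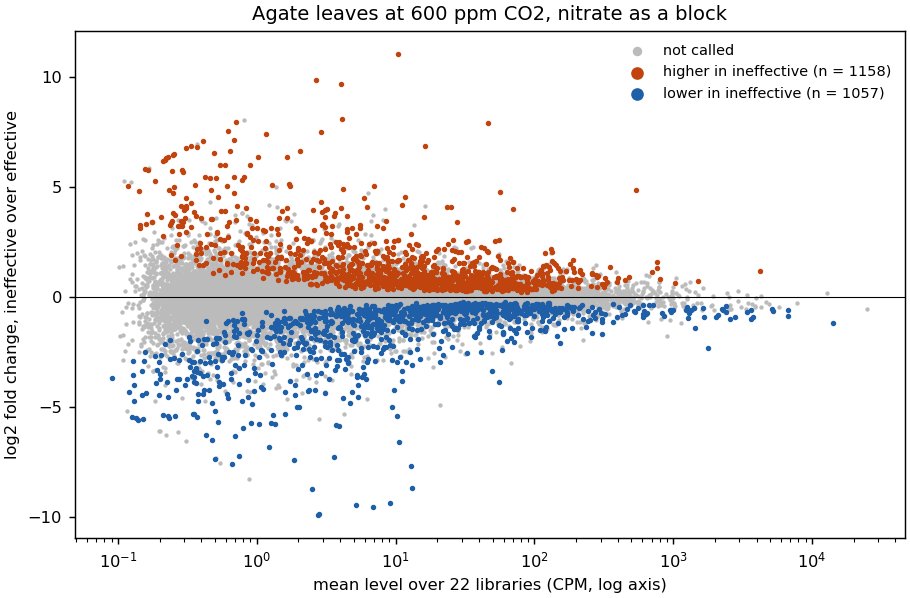
Log2 fold change of each tested gene, ineffective over effective plants, against its mean level over the 22 libraries (CPM, log axis). Called genes are coloured, 1158 higher and 1057 lower in ineffective plants; at the right end most coloured points lie below 0, and at the left end the called genes spread far to both sides.

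The 100 most abundant genes held a smaller share of the counts in ineffective plants. Their share was 26.8 ± 4.01% in ineffective and 32.3 ± 3.54% in effective plants (SD, n = 11 each), a difference of -5.52 percentage points with an exact permutation p of 0.00541 (two-sided, within nitrate levels, 98000 arrangements). The means lay farthest apart at 10 mM KNO3, though whether the gap differed between nitrate levels was not tested, with 24.3 ± 2.54% in ineffective and 35.3 ± 0.943% in effective plants (SD, n = 4 each), where no library of one class reached the values of the other (exact permutation p = 0.0286, the smallest that 4 against 4 libraries can give). At 6 mM the share was 28.4 ± 5.20% in ineffective and 31.2 ± 3.88% in effective plants (n = 4 each, exact permutation p = 0.371), and at 16 mM it was 27.9 ± 3.15% and 29.7 ± 2.83% for ineffective and effective plants (n = 3 each, exact permutation p = 0.50, where 0.10 is the smallest possible). Replicate 3 of ineffective plants at 6 mM stood apart from its group, with a share of 36.2% against 25.4% to 26.5% in the other 3 libraries. Ineffective libraries had counts for fewer genes, 24346 ± 229, than effective libraries, 24769 ± 412 (SD, n = 11 each, exact permutation p = 0.0121). With every library thinned to 15408689 counts, the smallest total, the numbers were 24070 ± 209 and 24272 ± 316 genes for ineffective and effective plants (exact permutation p = 0.108).

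Fixation class also separated the libraries along the main axis of variation. The first principal component of log2 CPM held 14.6% of the variance, of which class accounted for 64.8% and nitrate level for 7.07%. On it 10 of 11 ineffective and 2 of 11 effective libraries lay below 0. The second component held 13.3%, of which class accounted for 23.2% and nitrate level for 21.4%. The spread between libraries of a group was similar in both classes, with a median SD over genes of 0.590 in ineffective and 0.607 in effective plants on the log2 CPM scale.

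**Figure D2:**
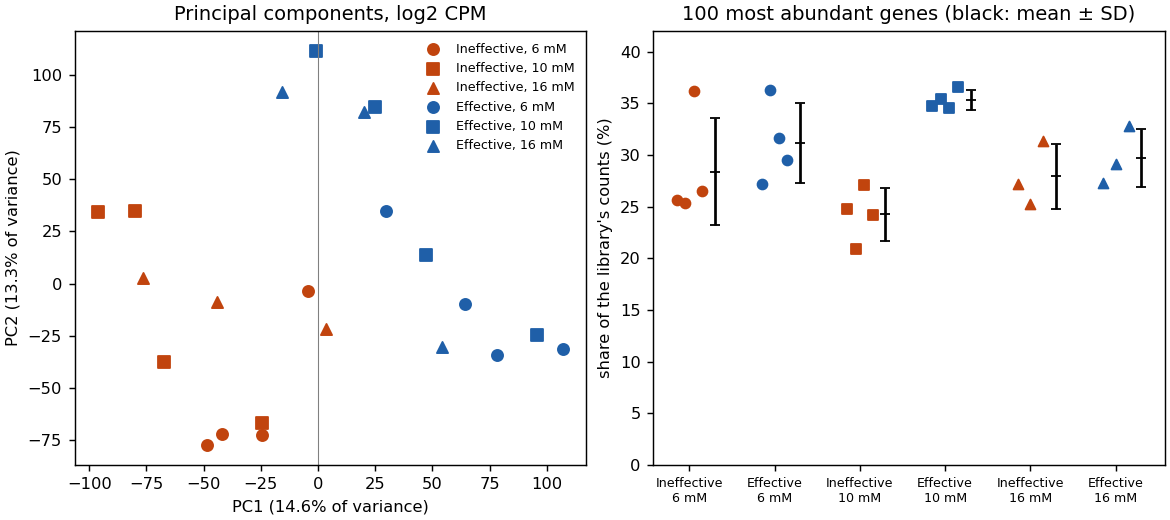
Left, the 22 libraries on the first and second principal components of log2 CPM, with class by colour and nitrate by shape. Right, the percentage of each library's counts in the 100 most abundant genes by group, with mean ± SD in black; at 10 mM the 4 ineffective libraries lie below all 4 effective libraries, and 1 ineffective library at 6 mM reaches 36.2%.

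Among the abundant transcripts, MsG0480018995.01 showed the clearest rise. It had 7552, 7749, 2933 and 13899 CPM in ineffective plants at 6 mM, against 2147, 2535, 2466 and 2337 CPM in effective plants. At 10 mM its levels were 8339, 5066, 4527 and 2826 CPM in ineffective plants, against 2274, 3301, 1888 and 2492 CPM in effective plants, and at 16 mM they were 4771, 4166 and 3514 CPM in ineffective plants, against 3020.2, 2840.2 and 2443 CPM in effective plants. All ineffective libraries at 6 and 16 mM were above all effective ones of the same nitrate level, while at 10 mM the ranges overlapped through 1 ineffective library. The log2 fold change was 1.19 ± 0.23 (SE, edgeR adjusted p = 0.00477). MsG0380016271.01 was higher too. It ranged over 1124 to 2344 CPM with a median of 1950.4 CPM in ineffective plants and over 676 to 1892 CPM with a median of 1033 CPM in effective plants, with a log2 fold change of 0.69 ± 0.17 (SE, edgeR adjusted p = 0.0175).

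Among those that fell, MsG0480019861.01 had 594, 924, 882 and 972 CPM in ineffective plants at 6 mM, against 1394, 934, 1175 and 1313 CPM in effective plants. At 10 mM it had 796, 626, 651 and 627 CPM in ineffective plants, against 1321, 1322, 1230.2 and 1416 CPM in effective plants, and at 16 mM 728, 646 and 659.8 CPM in ineffective plants, against 808, 929 and 1259 CPM in effective plants. The ranges did not overlap at 10 and 16 mM and met at 6 mM, and the log2 fold change was -0.69 ± 0.12 (SE, edgeR adjusted p = 0.00201). MsG0180006212.01 ranged over 781 to 1331 CPM with a median of 910.3 CPM in ineffective plants and over 1038 to 2022 CPM with a median of 1637 CPM in effective plants. Its ranges overlapped over all libraries and not within any nitrate level, and its log2 fold change was -0.72 ± 0.13 (SE, edgeR adjusted p = 0.00256). Without the libraries of replicate number 1 the adjusted p of MsG0480018995.01, MsG0380016271.01 and MsG0180006212.01 was 0.0817, 0.141 and 0.0622. MsG0380016271.01 lost its call under 2 of 35 alternatives, and MsG0480018995.01 and MsG0180006212.01 under 1 each.

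For 19 genes the 11 ineffective libraries did not overlap the 11 effective libraries in CPM. Of these, 11 were higher in ineffective plants, 0.0496% of the genes tested, and 8 were lower, 0.0361%. All 19 were called, but the calls rest on the same 22 libraries as the separate ranges and are no further evidence. The higher genes differed by 0.44 to 7.50 on the log2 scale with a median of 1.03, and the lower ones by 0.61 to 2.52 with a median of 1.67. Among the genes tested, 18 had no count in any ineffective library and 21 had none in any effective library. Such a gene could pass the filter on low counts through the other class alone, which fixes its direction.

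MsG0480023458.01 had the smallest p of all genes tested. In ineffective plants it had 10.8, 4.48, 14.9 and 6.17 CPM at 6 mM, 14.6, 23.3, 6.21 and 13.6 CPM at 10 mM and 8.83, 12.1 and 9.67 CPM at 16 mM. In effective plants it had 0.285, 0.288, 0.533 and 1.12 CPM at 6 mM, 0.414, 0.454, 0.834 and 0.325 CPM at 10 mM and 0.237, 0.582 and 0.292 CPM at 16 mM. Every ineffective library was thus above every effective library at every nitrate level. The log2 fold change was 4.51 ± 0.33 over the nitrate levels (SE, edgeR adjusted p = 2.67e-07), and 4.02 ± 0.55, 4.82 ± 0.57 and 4.75 ± 0.65 at 6, 10 and 16 mM (adjusted p = 0.00736, 0.00183 and 0.00885).

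MsG0580030016.01 was next to absent from effective plants. It had 2.15, 2.41, 1.13 and 0.807 CPM in ineffective plants at 6 mM, 8.71, 5.24, 7.85 and 5.94 CPM at 10 mM and 4.81, 6.25 and 18.6 CPM at 16 mM. In effective plants 8 of 11 libraries had no count, and the other 3 had 1 or 2 counts each, with at most 0.104 CPM. At 16 mM the counts were 599 in ineffective and 0 in effective plants, a level at least 242-fold higher in ineffective plants, from a floor of 3 counts over the group. At 6 mM they were 134 and 3 counts in ineffective and effective plants, which makes a ratio of 47.96 (exact 95% interval 16.1 to 235, counting error only). The edgeR adjusted p was 5.59e-06 over the nitrate levels and 0.028, 0.00409 and 0.00718 at 6, 10 and 16 mM. With so few counts in effective plants, MsG0580030016.01 could pass the filter on low counts only through ineffective plants, which fixes its direction.

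Of the genes with separate ranges that were lower, 2 are described here that were chosen after their values were seen. MsG0480023857.01 ranged over 21.7 to 36.1 CPM with a median of 30.8 CPM in ineffective plants and over 41.1 to 149 CPM with a median of 85.1 CPM in effective plants, a log2 fold change of -1.66 ± 0.18 (SE, edgeR adjusted p = 8.86e-05). MsG0380017000.01 ranged over 43.8 to 236 CPM with a median of 124 CPM in ineffective plants and over 246 to 778 CPM with a median of 331 CPM in effective plants, a log2 fold change of -1.67 ± 0.25 (SE, edgeR adjusted p = 0.000888). The highest ineffective library of MsG0380017000.01 came close to the lowest effective one, while its medians lay well apart.

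**Figure D3:**
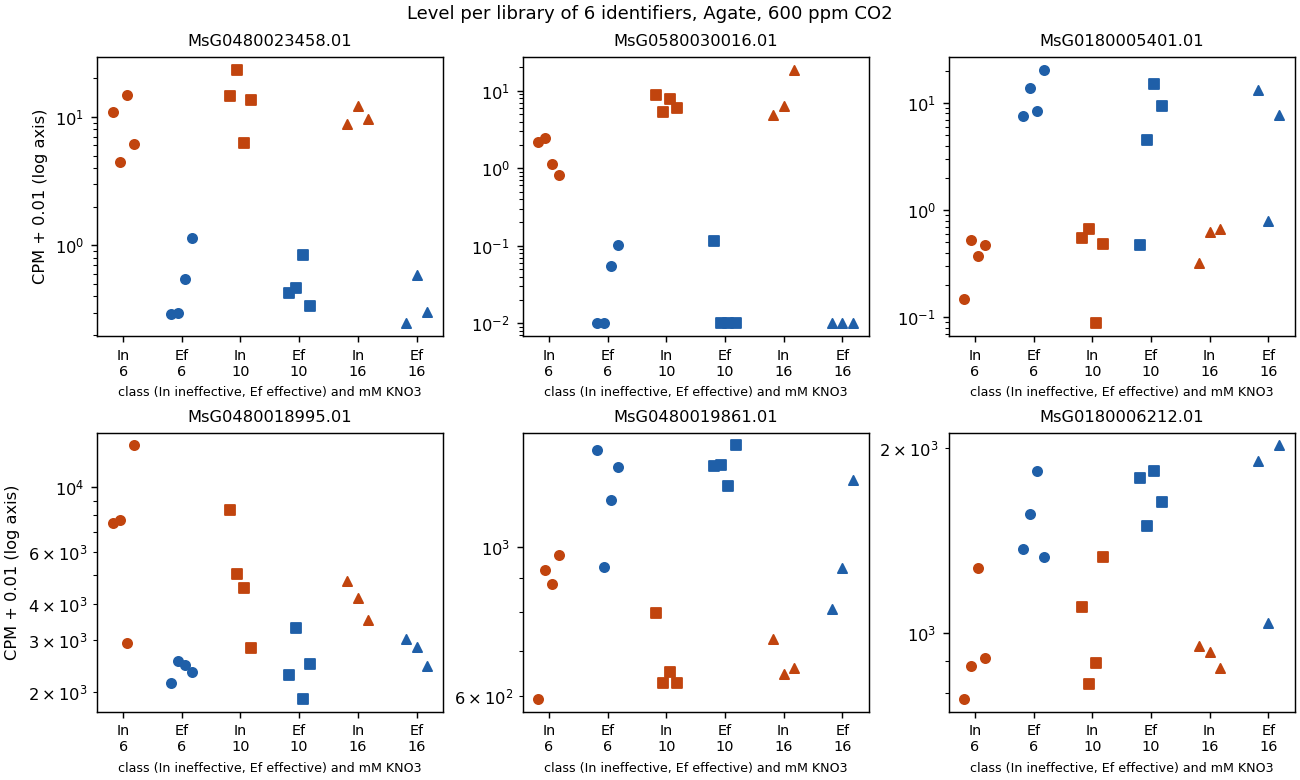
Level of 6 identifiers in each of the 22 libraries (CPM plus 0.01, log axis) by class and nitrate level, ineffective in orange and effective in blue. MsG0480023458.01 and MsG0580030016.01 do not overlap between classes, MsG0180006212.01 does not overlap within a nitrate level, and MsG0180005401.01, MsG0480018995.01 and MsG0480019861.01 overlap at 1 nitrate level each.

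The largest fitted differences among genes with a mean of at least 1 CPM belonged to genes present in some libraries of one class and next to absent from the other. MsG0180005083.01 ranged over 0 to 41.5 CPM with a median of 20.1 CPM in ineffective plants, where 2 of 11 libraries had no count. In effective plants it had 1 count in all, against 4886 in ineffective plants, which makes a ratio of 4961 (exact 95% interval 890.0 to 195989, counting error only; edgeR adjusted p = 0.000327). MsG0380011528.01 had 1364 counts in ineffective plants, spread over 8 of 11 libraries, and none in effective plants, so its level was at least 462-fold higher in ineffective plants (edgeR adjusted p = 0.012).

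In the other direction, MsG0680030543.01 had no count in ineffective plants and 1336 counts in effective plants. In effective plants it ranged over 0 to 16.9 CPM with a median of 0.125 CPM, and 5 of 11 libraries had no count. Its level was at least 439-fold lower in ineffective plants (edgeR adjusted p = 0.0308). MsG0180003726.01 had no count in ineffective plants and 1332 counts in effective plants, where 4 of 11 libraries had none either and the median was 4.85 CPM. Its level was at least 437-fold lower in ineffective plants (edgeR adjusted p = 0.0174). The folds given as at least set the summed counts of a class against a floor of 3 counts. They leave out the spread between libraries. For all 4 genes some libraries of the class that expressed the gene had no count, so the ranges overlapped at 0. All 4 genes, MsG0180005083.01 with its 1 count in effective plants included, could pass the filter on low counts only through the class that expressed them. This fixes their direction. None of the 4 was called at a single nitrate level. Without the libraries of replicate number 1, MsG0380011528.01, MsG0680030543.01 and MsG0180003726.01 had adjusted p-values of 0.0889, 0.0847 and 0.0976, and MsG0180005083.01 was called under every alternative. The former 3 genes lost their calls under 2, 5 and 3 of 35 alternatives. For MsG0680030543.01 the highest edgeR adjusted p was 0.140, without replicate number 4.

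Within single nitrate levels far fewer genes were called with edgeR. These numbers depended strongly on the method, and those of the other methods are given in the closing section. At 6 mM KNO3 24 genes were called, 0.108% of those tested, of which 16 were higher in ineffective plants, 0.0721%, and 8 lower, 0.0361%. At 10 mM 490 were called, 2.21%, of which 307 were higher, 1.38%, and 183 lower, 0.825%. At 16 mM 2 were called, 0.00901%, and both were higher. At an unadjusted p under 0.05 there were 3491, 4225 and 1642 genes at 6, 10 and 16 mM, where 16 mM had 3 libraries a class and the other levels 4. Without the libraries of 1 replicate number 0 to 22 genes were called at 6 mM, 0 to 46 at 10 mM and 0 to 2 at 16 mM. Whether the effect of class differed between nitrate levels was tested directly. The interaction called 0 genes with edgeR, with 1485 at an unadjusted p under 0.05, 0 with limma-trend and 35 with DESeq2. A higher number of calls at 10 mM is therefore not shown to be a larger effect of class at that level. Nor do 0 calls show equal effects at the 3 levels. In simulated counts with class changes at 6 mM alone, the edgeR interaction recovered 0 of 100 changes of 2-fold and 22 of 100 of 4-fold.

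The direction of the class difference was largely shared by the nitrate levels, which have no library in common. Of the 307 genes higher at 10 mM, 283 had a positive log2 fold change at 6 mM, 92.2%, and 252 at 16 mM, 82.1%, against 47.9% and 49.3% of all genes tested. Of the 183 genes lower at 10 mM, 171 were negative at 6 mM, 93.4%, and 157 at 16 mM, 85.8%, against 52.05% and 50.6% of all genes tested. Across the 22187 genes, Pearson's r of the log2 fold changes was 0.44 between 6 and 10 mM, 0.36 between 10 and 16 mM and 0.35 between 6 and 16 mM; genes are not independent replicates, and no p is given. The 100 most abundant genes had median log2 fold changes of -0.30 at 6 mM, -0.69 at 10 mM and -0.10 at 16 mM, and 72, 78 and 58 of them were negative at 6, 10 and 16 mM. At 10 mM 18 of them were called lower and 0 higher, where 0.825% of all genes tested were lower and 1.38% higher. At 6 and 16 mM 0 were called, where 0.108% and 0.00901% of all genes tested were called. The interaction of class with nitrate level called none of them, as it called 0 genes in all.

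At 6 mM the largest differences were found in MsG0280010301.01, MsG0580030016.01, MsG0780036060.01 and MsG0180005401.01. MsG0280010301.01 had 3.52, 7.83, 0.772 and 2.54 CPM in ineffective plants and 0, 0.144, 0 and 0.140 CPM in effective plants, a log2 fold change of 5.59 ± 1.05 (SE, edgeR adjusted p = 0.0437). MsG0780036060.01 had 0.320, 0.189, 0.360 and 0.288 CPM in ineffective plants and 23.2, 6.63, 73.1 and 1.08 CPM in effective plants, a log2 fold change of -6.45 ± 1.15 (SE, edgeR adjusted p = 0.0327). Neither of these genes overlapped between the classes at 6 mM, and at 16 mM both did. MsG0780036060.01 could not have passed the filter on low counts through ineffective plants alone, which favours the direction found. MsG0180005401.01 had 0.137, 0.519, 0.360 and 0.461 CPM in ineffective plants and 7.50, 13.7, 8.48 and 20.4 CPM in effective plants at 6 mM. It was also lower at 10 mM, with log2 fold changes of -5.06 ± 0.95 at 6 mM and -4.05 ± 0.91 at 10 mM (SE, edgeR adjusted p = 0.0437 and 0.0302). At 10 mM 1 effective library lay among the ineffective ones. None of the 4 genes was called at 6 mM once the libraries of any 1 replicate number were left out (edgeR adjusted p = 0.0633 to 0.351), and each lost its call under 5 to 7 of 10 alternatives.

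The largest differences at 10 mM were those of MsG0180005882.01, MsG0180005748.01, MsG0480022384.01 and MsG0680031536.01. MsG0180005882.01 had 0, 51.4, 3.12 and 156 CPM in ineffective plants and 0.104, 0.227, 0.0439 and 0.0929 CPM in effective plants, a log2 fold change of 8.80 ± 2.27 (SE, edgeR adjusted p = 0.0492). MsG0180005748.01 had 0, 3.43, 3.36 and 2.42 CPM in ineffective plants and no count in the 4 effective libraries, so its level was at least 60.3-fold higher in ineffective plants (edgeR adjusted p = 0.0481). For both, 1 ineffective library had no count. MsG0480022384.01 had 0.144, 0.124, 0.234 and 0.0525 CPM in ineffective plants and 0.363, 106, 0 and 2.09 CPM in effective plants, a log2 fold change of -7.48 ± 1.77 (SE, edgeR adjusted p = 0.0351). MsG0680031536.01 had 0.0360, 0.248, 0.0390 and 0.315 CPM in ineffective plants and 0.259, 24.2, 14.3 and 65.4 CPM in effective plants, a log2 fold change of -7.34 ± 1.41 (SE, edgeR adjusted p = 0.0175). For both MsG0480022384.01 and MsG0680031536.01, 1 effective library lay within the range of the ineffective ones or below it. These genes could not have passed the filter on low counts through ineffective plants alone. MsG0180005882.01 and MsG0180005748.01 could not have passed it through effective plants alone. The filter thus favours the direction found for each. None of the 4 was called at 10 mM without the libraries of any 1 replicate number (edgeR adjusted p = 0.0503 to 0.373), and each lost its call under 5 to 7 of 10 alternatives. Without replicate number 2 the log2 fold change of MsG0480022384.01 was -2.43. At 16 mM the only genes called were MsG0480023458.01 and MsG0580030016.01, which were called at the other levels too. Both lost the call at 16 mM without replicate number 1, 3 or 4 (edgeR adjusted p = 0.0736 to 0.451) and in the model of all 85 libraries (adjusted p = 0.202 for MsG0480023458.01 and 0.403 for MsG0580030016.01).

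The class difference was set beside that in Agate at 420 ppm CO2, in 10 ineffective and 11 effective libraries, and in the cultivar Saranac at 600 ppm, in 11 ineffective and 10 effective libraries. Neither shares a library with the 22 described here. In a model of all 85 grouped libraries, class called 683 genes in Agate at 420 ppm, 2.80% of 24386 tested, and 5276 in Saranac at 600 ppm, 21.6%. Of the 1158 genes higher in ineffective Agate at 600 ppm, 891 had a positive log2 fold change in Agate at 420 ppm, 76.9%, against 53.4% of all genes tested, and 104 were called higher and 0 lower there, where 1.63% of all genes were higher and 1.17% lower. Of the 1057 lower genes, 700 were negative at 420 ppm, 66.2%, against 46.6%, and 78 were called lower and 8 higher. In Saranac at 600 ppm 924 of the higher genes were positive, 79.8%, against 47.8% of all genes tested, with 527 called higher and 33 lower, where 10.4% of all genes were higher and 11.2% lower. There 867 of the lower genes were negative, 82.02%, against 52.2%, with 429 called lower and 12 higher. Pearson's r of the log2 fold changes across genes was 0.36 with Agate at 420 ppm and 0.27 with Saranac at 600 ppm, again with no p.

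**Figure D4:**
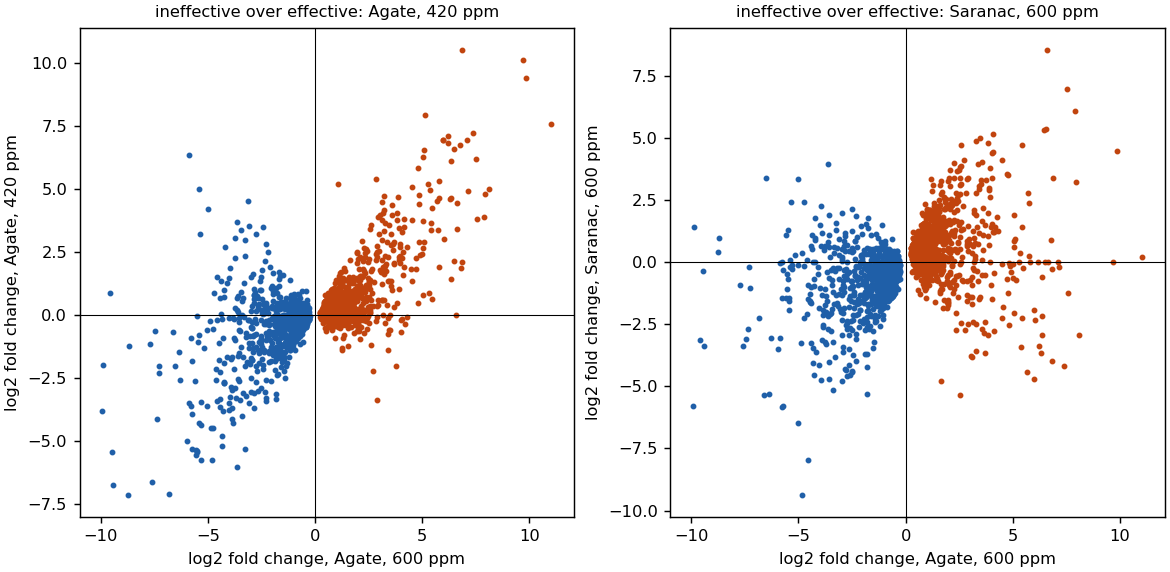
Log2 fold change, ineffective over effective, of the genes called in Agate at 600 ppm (horizontal axes) against the same quantity in Agate at 420 ppm (left) and in Saranac at 600 ppm (right), orange for higher and blue for lower genes. Most points lie in the quadrants of equal sign, 76.9% of the higher and 66.2% of the lower genes on the left and 79.8% and 82.02% on the right.

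The abundant transcripts were also read in the other libraries. Of the 100 genes most abundant in Agate at 600 ppm, 0 were called in Agate at 420 ppm, where their median log2 fold change was -0.11, and 50 were called lower and 9 higher in Saranac at 600 ppm, with a median of -0.50. Of all genes tested, 2.80% were called in Agate at 420 ppm, and 11.2% were lower and 10.4% higher in Saranac at 600 ppm. In each of these comparisons 74 of the 100 were negative. The difference between CO2 levels was called for 1 of the 100, lower at 600 ppm, and that between cultivars for 1, higher in Agate. Among all genes tested these differences were called for 0.992% and 2.94%. For MsG0480018995.01 the log2 fold change was 0.36 ± 0.22 in Agate at 420 ppm (SE, edgeR adjusted p = 0.434) and 1.67 ± 0.23 in Saranac at 600 ppm (SE, edgeR adjusted p = 1.49e-07), and neither difference from Agate at 600 ppm was called (adjusted p = 0.213 for CO2 level and 0.369 for cultivar).

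The 19 genes with separate ranges were followed into the other libraries. In Agate at 420 ppm 10 of the 11 higher genes were positive and 6 of the 8 lower genes negative, with 5 and 2 of them called in that direction. Of all genes tested there, 53.4% were positive and 46.6% negative, and 1.63% were called higher and 1.17% lower. In Saranac at 600 ppm 7 of the 11 higher and 8 of the 8 lower genes had the same sign, with 6 and 4 called in that direction and 1 called in the opposite one, where 47.8% of all genes were positive and 52.2% negative, and 10.4% were called higher and 11.2% lower. Separate ranges recurred in 1 gene, in Saranac. The gene called in the opposite direction was MsG0480023458.01. In Agate at 420 ppm it had a median of 11.5 CPM in ineffective plants, against 0.576 CPM in effective plants, a log2 fold change of 3.77 ± 0.57 (SE, edgeR adjusted p = 3.47e-05). In Saranac at 600 ppm its median was 0.150 CPM in ineffective plants, against 0.474 CPM in effective plants, a log2 fold change of -2.24 ± 0.57 (SE, edgeR adjusted p = 0.00289). The difference between cultivars was 6.77 ± 0.81 (SE, edgeR adjusted p = 2.07e-07). MsG0580030016.01 was higher in all 3 comparisons, with median levels of 14.6 CPM in ineffective and 0 CPM in effective Agate at 420 ppm (edgeR adjusted p = 0.00315) and of 9.58 CPM in ineffective and 0.0234 CPM in effective Saranac at 600 ppm (edgeR adjusted p = 0.000101).

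The effect of class differed between CO2 levels in Agate in 242 genes, 0.992% of those tested, 74 with a higher log2 fold change at 600 than at 420 ppm, 0.303%, and 168 with a lower one, 0.689%. Since each CO2 level had its own chamber, chamber and CO2 cannot be told apart here. The largest positive differences were those of MsG0280010631.01, 12.32 ± 2.52 (SE, edgeR adjusted p = 0.00687), and MsG0380013534.01, 9.44 ± 1.70 (SE, edgeR adjusted p = 0.00377). Neither gene was called in Agate at 600 ppm. MsG0280010631.01 ranged there over 0 to 50.4 CPM with a median of 2.10 CPM in ineffective plants and over 0 to 12.6 CPM with a median of 1.38 CPM in effective plants. At 420 ppm it reached 1.34 CPM in ineffective plants, against 843 CPM in effective plants and was called lower in ineffective plants (edgeR adjusted p = 0.00233). Of the 242 genes, 131 were called for class at 600 ppm only and 73 at 420 ppm only in the same model. Another 10 were called at both in opposite directions, and 28 at neither. Without the libraries of 1 replicate number the count of 242 became 13 to 377. It also depended strongly on the method and on the libraries modelled, as given in the closing section.

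The largest negative differences were those of MsG0480019192.01, -13.17 ± 2.44 (SE, edgeR adjusted p = 0.00409), and MsG0280006552.01, -11.64 ± 2.36 (SE, edgeR adjusted p = 0.00678). At 600 ppm MsG0480019192.01 ranged over 0 to 0.893 CPM with a median of 0.0457 CPM in ineffective plants and over 0 to 36.4 CPM with a median of 1.95 CPM in effective plants, a log2 fold change of -5.85 ± 1.12 (SE, edgeR adjusted p = 0.00428). At 420 ppm the order was the other way, with a median of 0.494 CPM and a highest value of 435 CPM in ineffective plants against 0.192 and 1.92 CPM in effective plants. MsG0280006552.01 had a median of 0.360 CPM in ineffective plants, against 5.74 CPM in effective plants at 600 ppm, where it was not called (edgeR adjusted p = 0.0602). A single ineffective library at 420 ppm reached 13492 CPM for this gene, against a median of 0.652 CPM. None of the 4 differences between CO2 levels was called without the libraries of replicate number 1 (edgeR adjusted p = 0.0564 to 1).

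Between the cultivars at 600 ppm the effect of class differed in 716 genes, 2.94% of those tested, 389 with a higher log2 fold change in Agate than in Saranac, 1.60%, and 327 with a lower one, 1.34%. Without the libraries of 1 replicate number the count was 114 to 279. MsG0180004094.01 had the largest positive difference, 11.05 ± 2.58 (SE, edgeR adjusted p = 0.0112), and was not called in Agate, where its median was 1.67 CPM in ineffective plants, against 0 CPM in effective plants. MsG0380014257.01 followed, with a difference of 11.03 ± 2.31 (SE, edgeR adjusted p = 0.00414). In Agate it reached 40.8 CPM with a median of 0.908 CPM in ineffective plants and at most 0.132 CPM in effective plants, and it was called higher there (edgeR adjusted p = 0.00386). The largest negative difference was that of MsG0880043779.01, -10.36 ± 2.34 (SE, edgeR adjusted p = 0.00697). In Agate it was at most 0.320 CPM in ineffective plants and ranged over 0 to 134 CPM with a median of 4.13 CPM in effective plants, while in Saranac the medians were 1.62 CPM in ineffective plants, against 0.0936 CPM in effective plants. MsG0480022265.01 differed by -9.34 ± 2.25 (SE, edgeR adjusted p = 0.0129), with medians in Agate of 0 CPM in ineffective plants, against 0.0481 CPM in effective plants, and it was not called in Agate (edgeR adjusted p = 0.0755). All 4 genes had libraries without a count in both classes of Agate. The difference of MsG0180004094.01 was not called without any 1 of the 4 replicate numbers (edgeR adjusted p = 0.226 to 1) and ran from 3.75 to 30.2 over 10 alternatives, and MsG0480022265.01 lost its call under 6 of 10 (adjusted p up to 1). MsG0380014257.01 and MsG0880043779.01 lost theirs under 3 of 10 each.

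The called genes were not spread evenly over the identifiers. Identifiers carry a pair of digits after the letters MsG, from 00 to 08; what these digits stand for is not given in the sources used here. Among identifiers with 04, 14.4% of the 3024 tested were called, 205 higher and 230 lower, against 8.20% to 10.9% for the other digits. Of the 19 genes with separate ranges, 9 carried 04, as did 3024 of all 22187 genes tested. Within 04, the lower-numbered identifiers, from MsG0480018084.01 to MsG0480021739.01, had 11.5% called, and the higher-numbered ones, up to MsG0480024030.01, had 17.3%. The same ordering was found in the other libraries. In Agate at 420 ppm 5.13% of identifiers with 04 were called, against 1.80% to 4.30% for other digits, with 7.27% among the higher and 3.05% among the lower numbers. In Saranac at 600 ppm it was 24.5%, against 19.2% to 21.8%, with 27.3% among the higher and 21.7% among the lower numbers. This pattern was noticed in the data and was not tested.

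**Figure D5:**
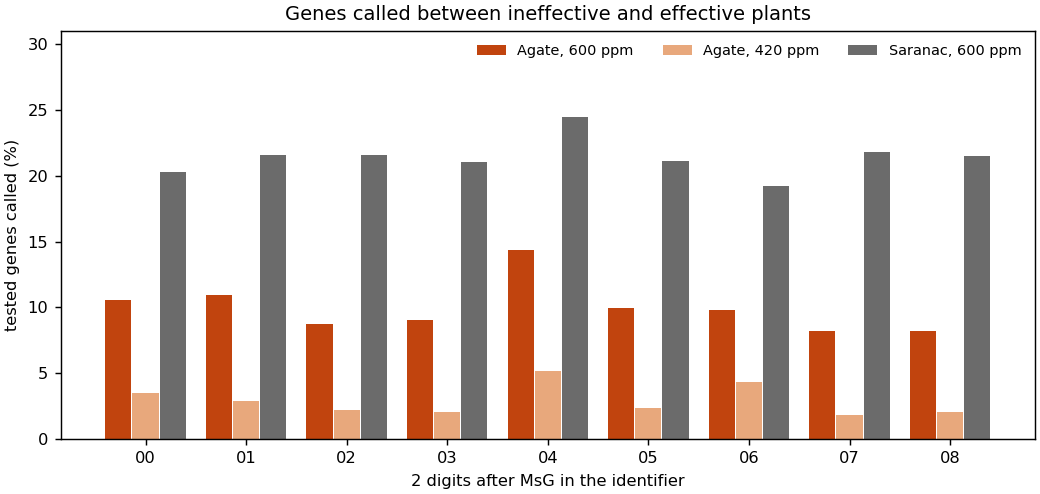
Percentage of tested genes called between ineffective and effective plants, by the digits after MsG in the identifier, in Agate at 600 ppm, Agate at 420 ppm and Saranac at 600 ppm. The bars for 04 are the highest of their colour, at 14.4%, 5.13% and 24.5%.

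Neighbouring identifiers sometimes differed together. Taking the tested genes in the order of their identifiers, 19 runs of at least 3 successive genes were called higher, with 60 genes and at most 4 a run, and 16 runs were called lower, with 53 genes. How many such runs would arise if called genes were spread evenly was not worked out. The longest run, chosen after its values were seen, held 6 genes that were lower in ineffective plants, from MsG0480022455.01 to MsG0480022461.01, with log2 fold changes of -3.29 to -1.19. All 6 were negative in Agate at 420 ppm, where 0 were called lower, and in Saranac at 600 ppm, where 2 were called lower. Successive numbers are not shown to be neighbours in the genome, since no annotation of these identifiers was used.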

How the data were processed

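The authors deposited unnormalized read counts per gene from featureCounts, per the submitters' processing notes. The tool version, aligner, build, annotation and strand setting were not given in the sources used here. A stranded mRNA kit was used for the libraries, per the labels' protocols.

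The 22 libraries were fitted in R 4.3.3 with edgeR 4.0.16 and tested by quasi-likelihood F, with terms for nitrate level and class, TMM scaling, robust dispersion and filterByExpr with the 6 groups. Effects at single nitrate levels and their interaction came from a model with 1 term per group. Comparisons with 420 ppm and Saranac came from a model of 85 libraries in 24 groups; 1 library with contradictory labels was left out. Benjamini-Hochberg adjustment ran over all genes tested, and a gene with an adjusted p under 0.05 is called. The SE is the size of the log2 fold change over the square root of F. Folds given as at least come from summed counts against a floor of 3 counts and leave out the spread between libraries. CPM were scaled with the TMM factors of the 85-library model. Totals and shares were compared by exact permutation of classes within nitrate levels. The scripts were tested on simulated data.

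Named identifiers were, per comparison, at most 2 in each direction: the largest log2 fold changes among called genes with a mean of at least 1 CPM (for class, with the same sign at all 3 nitrate levels), and among the 100 most abundant genes the smallest p. The comparison and these lists were chosen with earlier results of these data known. Lists of genes by function could not be run, because no identifier matched a name. Alternatives were limma-trend 3.58.1, DESeq2 1.42.0, other scaling, no filter, replicate blocks, no nitrate term, thinned counts, and replicates or single libraries left out.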

Additional observations from a re-analysis of the deposited data

Results flagged for a closer look

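In groups of 4 libraries, 112 sets of values of named identifiers and library measures were examined, and 22 held a library far from the other 3. The rate of about 1 group in 20 that chance alone marks cannot be set against these 22. In several of them the other 3 libraries had no count of the identifier, so that even a single count stood apart. The identifiers were also chosen for their differences. It is therefore not shown that more libraries stood apart than by chance. Replicate 3 of ineffective plants at 6 mM had 36.2% of its counts in the 100 most abundant genes, against 25.4% to 26.5% in the others, and replicate 1 of effective plants at 10 mM had counts for 23938 genes, against 24781 to 24927.

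The other values are levels of single identifiers. In ineffective plants at 6 mM, replicate 2 had 50.4 CPM of MsG0280010631.01 and 4.63 CPM of MsG0380013534.01, against at most 3.63 and 0.685 CPM in the others. Replicate 4 had 1.67 CPM of MsG0180004094.01 and 10.6 CPM of MsG0380014257.01, and replicate 1 had 0.320 CPM of MsG0880043779.01, all at 0 in the others. At 10 mM, replicate 1 had 796 CPM of MsG0480019861.01, against 626 to 651 CPM, and replicate 4 had 0.0525 CPM of MsG0480022265.01, against 0.

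In effective plants at 6 mM, replicate 1 had 229 CPM of MsG0280006552.01, 36.4 CPM of MsG0480019192.01 and 5.65 CPM of MsG0480022265.01, against at most 1.60, 0.622 and 0.0481 CPM in the others. Replicate 2 had 34.6 CPM of MsG0880043779.01, against at most 0.0468 CPM. Replicate 3 had 0.0444 CPM of MsG0380014257.01, against 0. Replicate 4 had 2.29 CPM of MsG0180005748.01, against at most 0.178 CPM, and 16.9 CPM of MsG0680030543.01, against 0. At 10 mM, replicate 2 had 106 CPM of MsG0480022384.01 and 6.02 CPM of MsG0480022265.01, against at most 2.09 and 0.176 CPM in the others. Values set against 0 in the other 3 libraries were 0.104 CPM of MsG0580030016.01 in replicate 1, 0.132 CPM of MsG0380014257.01 in replicate 3, and 0.511 CPM of MsG0180004094.01 and 0.0464 CPM of MsG0180005083.01 in replicate 4.

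The effect of class differed by test between CO2 levels in Agate in 242 genes and between the cultivars at 600 ppm in 716 genes. The identifiers named for the CO2 levels, with the log2 fold change at 600 ppm minus that at 420 ppm, were MsG0280010631.01 with 12.32, MsG0380013534.01 with 9.44, MsG0480019192.01 with -13.17 and MsG0280006552.01 with -11.64. Those named for the cultivars, with the log2 fold change in Agate minus that in Saranac, were MsG0180004094.01 with 11.05, MsG0380014257.01 with 11.03, MsG0880043779.01 with -10.36 and MsG0480022265.01 with -9.34.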

How the results depend on the processing

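For the named identifiers, 0 of 528 recomputed values changed sign, 431 remained called and 97 did not. The identifiers were chosen for their differences in the same libraries, which favours an unchanged sign. Each value for class over all nitrate levels had 35 alternatives, against 9 or 10 for the others, so these weigh most in the totals. At single nitrate levels the named identifiers lost their calls under 4 to 7 of 10 alternatives. Among all genes called for class, the balance of higher against lower turned under 3 alternatives given with that count. The replicate numbers do not pair the libraries: deviations from the group means correlated by -0.11 to 0.18 between same-numbered libraries, over 0.1 in 3 of 11 pairs, all at 10 mM, where the 4 pairs had 0.0798 to 0.18, and 3 ineffective libraries correlated best with their own number. With the replicate block, 1677 genes were called for class, 9 at 6 mM, 269 at 10 mM and 161 for class by CO2, and with pairs within nitrate levels 1219 were called for class. The cause of the following shifts was not tested. DESeq2 called 3819 genes for class, 1099, 1949 and 187 at 6, 10 and 16 mM, 35 for class by nitrate, 901 for class by CO2, 1482 for class by cultivar and 1339 for class in Agate at 420 ppm. With limma-trend the counts were 121 at 6 mM, 771 at 10 mM and 47 for class by CO2. Without a filter on low counts 295 were called at 10 mM, 134 for class by CO2 and 441 in Agate at 420 ppm. The model of 85 libraries called 122 genes at 6 mM, and models of the compared libraries alone called 62 for class by CO2 and 45 in Agate at 420 ppm. Without the libraries of 1 replicate number, the ranges were 255 to 1185 genes for class (1557 to 2788 without any single library), 0 to 22 at 6 mM, 0 to 46 at 10 mM, 0 to 2 at 16 mM, 0 to 2 for class by nitrate, 13 to 377 for class by CO2, 114 to 279 for class by cultivar, 116 to 447 in Agate at 420 ppm and 3137 to 3942 in Saranac at 600 ppm. The difference in total count ranged over -2810240 to -1221090, with an exact permutation p of up to 0.261, and that in the share of the 100 most abundant genes over -6.73 to -3.92 percentage points, with an exact permutation p of up to 0.0473. The thinned counts, the alternatives in Agate at 420 ppm and in Saranac, and single libraries left out for the share were chosen after seeing the data. With 3 or 4 libraries a group, a gene that misses the threshold at 1 nitrate level is not shown to be alike in both classes, and genes near 0 counts have fitted fold changes that depend on the prior count.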
